A study of Homo sapiens with 6 samples.

Results

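The Fc receptors and Fc receptor-like genes of B cells were examined in Raji cells, an established human Burkitt's lymphoma line that derives from germinal centre B cells, with and without added IRF4. The 10 genes were chosen by name and matched to the count table through their Entrez identifiers: FCGR2B (2213), FCER2 (2208), FCMR (9214), FCRL1 (115350), FCRL2 (79368), FCRL3 (115352), FCRL4 (83417), FCRL5 (83416), FCRLA (84824) and FCRLB (127943). All 10 were found among its 23459 genes, and all 10 passed the filter on low counts. There were 3 control libraries, from cells given the lentiviral vector without an insert, and 3 IRF4-overexpressing libraries (IRF4 libraries from here on), from cells given the same kind of vector carrying human IRF4 cDNA. Cells of both groups were infected for 5 days and then kept for 7 days in puromycin at 3 µg/ml, so the vector and the selection are shared. A single cell line was used. The labels do not say whether replicates were separate infections or cultures, and p-values therefore measure the spread between libraries, which may be technical. The libraries came from a whole population of cells, in which more cells expressing a gene and more RNA per cell cannot be told apart.

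Fc receptors bind the constant part of antibodies and tell a cell that antibody is present. On B cells FCGR2B, the receptor for IgG, restrains the B cell receptor through an inhibitory tyrosine motif, FCER2 (CD23) is the low-affinity receptor for IgE, and FCMR binds IgM. The Fc receptor-like family lies near the classical receptors and is largely restricted to B cells. FCRL1 to FCRL5 are surface proteins whose tails carry tyrosine motifs that dampen or promote receptor signalling, whereas FCRLA and FCRLB stay inside the cell. IRF4, a transcription factor that activated B cells and plasma cells use, binds DNA with ETS-family partners at composite elements or, at higher levels, at tandem IRF elements.

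Library totals ran from 27681979 to 46210702 counts. IRF4 was at 1.25 ± 0.203 CPM in control and 132 ± 15.8 CPM in IRF4 libraries (SD, n = 3 per group), as labelled. CPM are counts per 1000000 counts of the TMM-scaled library. Within groups, libraries differed mostly along 1 axis (the first principal component of log2 CPM after subtracting group means), which took up 74.3% of that variance. Control replicate 1 and IRF4 replicates 2 and 3 lay on its side A, the other 3 libraries on side B, and IRF4 replicate 1 was farthest out. Fits within a side hold 1 library of one group, assumed to vary like the others, and their p-values are too small because the axis was read from the same counts. Of the 14 B cell markers written down, all passed the filter, and together they took 4750 to 4870 CPM in control and 4990 to 5620 CPM in IRF4 libraries. HLA-DRA held the largest part of that sum, with means of 1850 CPM in control and 2390 CPM in IRF4 libraries. By edgeR's quasi-likelihood test 0 of the 14 were called, against 2.98% of all genes called higher and 0.182% lower. DESeq2 and limma-voom each called 0 of the 14 higher, against 4.78% and 2.81% of all genes. Each called 1 lower, against 1.45% and 0.182%. At an unadjusted p under 0.05 by edgeR, 3 were higher and 2 lower, against 11.3% and 8.18% of all genes tested. Without IRF4 replicate 1, 3 were called higher and 7 lower, against 19.9% and 25.1% of all genes. The median log2 fold change of the 14 was -0.15. BANK1 had the smallest edgeR p of them, at 4.67 ± 0.544 and 2.26 ± 0.624 CPM (SD, n = 3 per group). It was lower in every IRF4 library (-1.05 on the log2 scale, edgeR adjusted p = 0.0535). MS4A1 came next and was higher in every IRF4 library (0.26, edgeR adjusted p = 0.174). FCRLA is itself among these markers.

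With IRF4 raised, 3 neighbouring genes of the Fc receptor-like cluster rose. These were FCRL4 (2.39-fold), FCRL5 (2.47-fold) and FCRL3 (1.96-fold), surface receptors of memory-type B cells whose tails carry inhibitory motifs. Their adjusted p-values from edgeR's quasi-likelihood test were 0.00535, 0.0266 and 0.0214. The other 7 genes did not pass, among them FCRLA, the most abundant, and FCGR2B, the inhibitory IgG receptor. In all 3 of 10 genes were called higher, where 2.98% of the 12079 genes tested were. Both counts moved when 1 library was left out: only FCRL4 was called without control replicate 1, 2 or 3 or IRF4 replicate 3, 2 of the 10 were called without IRF4 replicate 2 and 4 without IRF4 replicate 1. The 360 genes called higher in all became 120 to 2436. None of the 10 was called lower by edgeR, DESeq2 or limma-voom, with 1 (FCRLB) lower at an unadjusted p under 0.05, and 0.182% of all genes were called lower. At an unadjusted p under 0.05 by edgeR, 5 of the 10 were higher and 1 lower, against 11.3% and 8.18% of all genes. The median log2 fold change of the 10 was 0.42, and that of all genes tested was 0.01. The 10 genes were chosen with earlier results of these data known, so these comparisons with all genes are descriptions and no test. Weak genes were called higher more often than abundant ones over the whole table: 7.87% of genes averaging 1 to 3 CPM, where FCRL5 lies, 5.25% at 3 to 10 CPM, where FCRL4 lies, and 1.75% at 10 to 100 CPM, where FCRL3 lies.

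**Figure D1:**
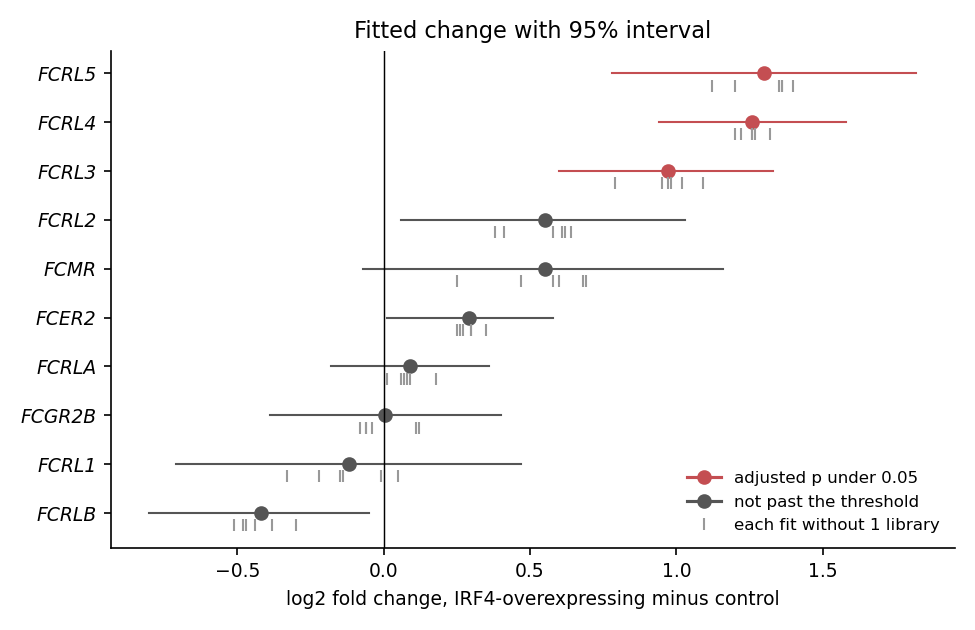
Log2 fold change of each of the 10 genes (x axis, IRF4 minus control), with the 95% interval of the edgeR fit as a line and the 6 fits that leave out 1 library as ticks. FCRL5, FCRL4 and FCRL3, in red, passed the adjusted threshold with 1.30, 1.26 and 0.97, and the remaining genes, in grey, ran from -0.42 for FCRLB to 0.55 for FCRL2 and FCMR.

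FCRL4, a receptor for IgA that marks memory B cells of mucosal tissue, measured 1.84, 1.82 and 1.72 CPM in the control libraries (replicates 1, 2 and 3, the order used throughout) against 3.87, 4.70 and 4.33 CPM with IRF4. The groups did not overlap, and the gap between them was wider than the range within either. This is a log2 fold change of 1.26 with an SE of 0.14 (edgeR adjusted p = 0.00535). It ran from 1.20 to 1.32 in the 6 fits without 1 library and passed in all of them, with edgeR adjusted p from 3.25e-04 to 0.041. On sides A and B of the library axis the log2 fold change was 1.28 and 1.16, and it passed on each side (edgeR adjusted p = 8.96e-08 and 0.00552).

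FCRL3, which binds secretory IgA and is also known from T and NK cells, was the highest of these 3. It measured 10.5, 10.0 and 10.3 CPM in control libraries against 24.5, 16.9 and 18.9 CPM with IRF4. The control libraries were close together, while IRF4 replicate 1 stood above the other two. The log2 fold change of 0.97, with an SE of 0.15, passed (edgeR adjusted p = 0.0214) and became 0.79 without that library (edgeR adjusted p = 5.84e-04). On side A of the axis, which does not hold it, the log2 fold change was 0.76, and on side B 1.31 (edgeR adjusted p = 5.59e-09 and 3.65e-06). Leaving out any control library (1, 2, 3) or IRF4 replicate 3 lost the call (edgeR adjusted p = 0.137, 0.157, 0.132 and 0.0858), where the log2 fold change stayed between 0.95 and 1.02.

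FCRL5, a receptor that recognises intact IgG and is abundant on plasma cells, was the weakest of the 10. Its counts were 19, 19 and 24 in control replicates and 48, 51 and 82 in IRF4 ones, which came to 0.473, 0.707 and 0.656 CPM against 1.40, 1.38 and 1.70 CPM. Every IRF4 library was above every control library. This is a log2 fold change of 1.30 with an SE of 0.22 (edgeR adjusted p = 0.0266). Among fits without 1 library it passed only when IRF4 replicate 1 was left out (edgeR adjusted p = 0.00342). Leaving out control 1, 2 or 3, or IRF4 2 or 3, gave edgeR adjusted p of 0.0977, 0.0904, 0.112, 0.0777 and 0.12, with log2 fold changes of 1.12 to 1.40. On sides A and B the log2 fold change was 1.70 and 1.07, and it passed on side A alone (edgeR adjusted p = 1.7e-04 and 0.0808).

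**Figure D2:**
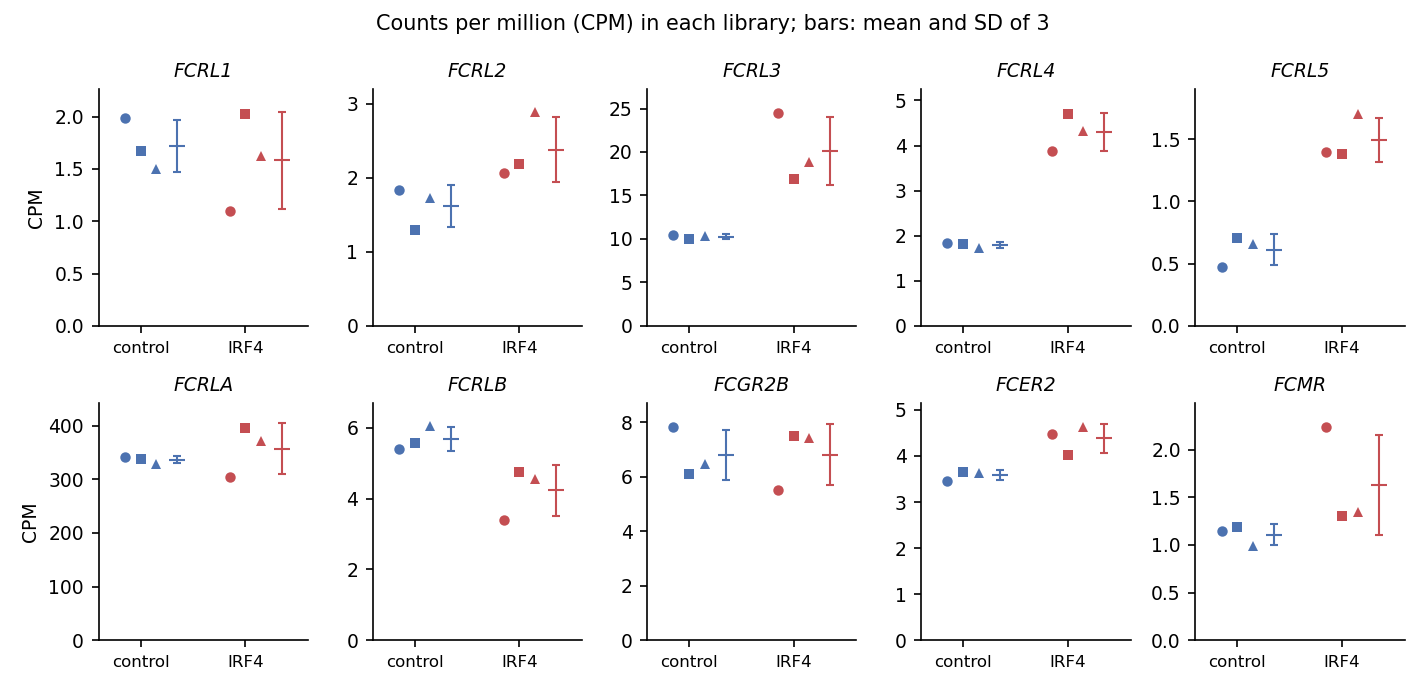
CPM (y axis, from 0) of each gene in each library, with control in blue, IRF4 in red, and circles, squares and triangles for replicates 1, 2 and 3. The bars give mean and SD (n = 3), and in FCRL3, FCRL4 and FCRL5 the groups are set apart, while IRF4 replicate 1 stands alone in FCMR at 2.24 CPM.

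FCRL2 and FCRL1 complete the cluster. FCRL2, a receptor of memory B cells, measured 1.84, 1.30 and 1.72 CPM in control libraries against 2.06, 2.19 and 2.88 CPM with IRF4. The groups did not overlap, but the gap between them was smaller than the range within either. Its log2 fold change was 0.55 (95% interval 0.06 to 1.03, edgeR adjusted p = 0.219), and it passed when IRF4 replicate 1 was left out (0.62, edgeR adjusted p = 0.0386). FCRL1, which promotes B cell activation, measured 1.99, 1.67 and 1.50 CPM in control libraries against 1.10, 2.03 and 1.62 CPM with IRF4. Its groups overlapped, and both the lowest and the highest value were in IRF4 libraries. The log2 fold change of FCRL1 was -0.12 (95% interval -0.71 to 0.47, edgeR adjusted p = 0.77), which turned to 0.05 with IRF4 replicate 1 left out.

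In the RefSeq order on chromosome 1 these genes run FCRL5, FCRL4, FCRL3, FCRL2, FCRL1, and their log2 fold changes in that order were 1.30, 1.26, 0.97, 0.55 and -0.12. FCRL5 and FCRL4 differed by less than their SEs (0.22 and 0.14). The order was noticed after the values were seen, was not tested, and did not hold in every fit. FCRL5, FCRL4 and FCRL3 ran the other way on side B (1.07, 1.16 and 1.31). FCRL5 was also below FCRL4 without control replicate 1 (1.12 and 1.27) and without IRF4 replicate 3 (1.20 and 1.26). The nearest tested genes outside the cluster were ETV3, a repressor of the ETS family, on the FCRL5 side (-0.71, SE 0.37, edgeR adjusted p = 0.314) and PYHIN1, an interferon-inducible gene, on the FCRL1 side (0.63, SE 0.16, edgeR adjusted p = 0.113). Without 1 library they ran from -1.26 to -0.42 and from 0.57 to 0.68. Each passed in 1 of those 6 fits (edgeR adjusted p = 9.26e-04 and 0.0255). Of the 30 protein-coding genes in the reference from ETV3 to PYHIN1, 29 were in the table and 7 passed the filter. Another 15 had 0 counts in every library, and 7 had counts below the filter.

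**Figure D3:**
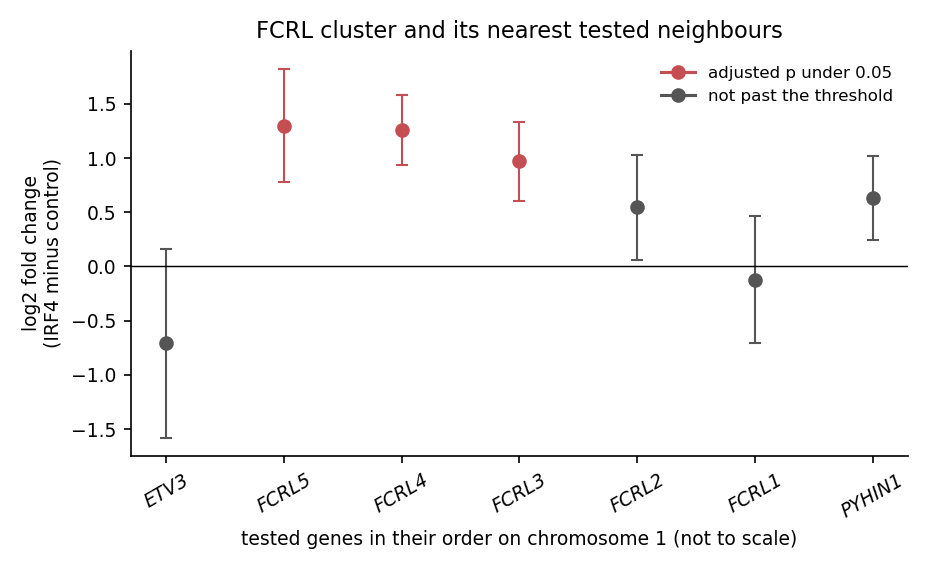
Log2 fold change (y axis, IRF4 minus control, bars for the 95% interval) of the tested genes from ETV3 to PYHIN1, in their order on chromosome 1 and not to scale. FCRL5 and FCRL4 stand at 1.30 and 1.26 with intervals that overlap, FCRL1 at -0.12, and the flanking ETV3 and PYHIN1 at -0.71 and 0.63, in the fit of all 6 libraries.

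The promoters of this cluster are shown because its genes lie side by side and differed in their response. The sequences are the 250 bases before each start in RefSeq (GRCh38.p14), on the minus strand and written 5′ to 3′. They were searched on both strands for an ETS-IRF composite element (GGAANNGAA), a tandem IRF element (GAAANNGAA) and the octamer (ATGCAAAT), of which the former pair can overlap. Capitals mark matches. The windows are chr1:157552516-157552765 for FCRL5, chr1:157598086-157598335 for FCRL4, chr1:157700770-157701019 for FCRL3 and chr1:157820121-157820370 for FCRL1.
FCRL5: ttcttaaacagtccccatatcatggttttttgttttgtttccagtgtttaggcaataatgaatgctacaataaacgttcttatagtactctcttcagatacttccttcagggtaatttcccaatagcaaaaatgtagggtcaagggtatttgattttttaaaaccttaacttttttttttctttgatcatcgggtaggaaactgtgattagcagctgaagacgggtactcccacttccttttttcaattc
FCRL4: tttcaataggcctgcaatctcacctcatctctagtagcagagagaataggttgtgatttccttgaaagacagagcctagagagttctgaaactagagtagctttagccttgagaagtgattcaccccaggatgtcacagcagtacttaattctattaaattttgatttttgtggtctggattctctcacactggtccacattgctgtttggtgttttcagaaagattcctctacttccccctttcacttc
FCRL3: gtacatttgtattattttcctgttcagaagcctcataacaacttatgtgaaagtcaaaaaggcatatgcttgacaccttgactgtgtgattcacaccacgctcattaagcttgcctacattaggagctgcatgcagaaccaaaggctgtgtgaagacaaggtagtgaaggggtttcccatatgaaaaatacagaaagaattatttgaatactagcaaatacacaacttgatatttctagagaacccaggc
FCRL1: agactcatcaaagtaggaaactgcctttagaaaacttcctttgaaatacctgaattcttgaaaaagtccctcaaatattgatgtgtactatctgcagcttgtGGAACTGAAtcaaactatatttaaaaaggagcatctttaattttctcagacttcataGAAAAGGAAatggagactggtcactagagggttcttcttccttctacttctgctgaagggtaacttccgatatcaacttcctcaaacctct
FCRL1, whose level did not pass the test, held GGAACTGAA at 148 to 140 bases before its start and GAAAAGGAA at 91 to 83 bases before it. FCRL3, FCRL4 and FCRL5, which rose, held none of the 3 motifs in these windows, and neither did FCRL2. The first bases after the start were found in GENCODE transcripts of FCRL2, FCRL3 and FCRL5, but in none of FCRL1 or FCRL4. The distances for FCRL1 and the window of FCRL4 therefore rest on the RefSeq start alone. A match is a run of letters and not a measured binding site, and distant elements lie outside the windows.

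All 10 genes had at least 1 RefSeq promoter, 15 in all, and 5 of the 15, of 5 genes, held a match. Besides FCRL1, FCRLA held GAAAATGAA at 92 to 84 bases, and the second promoter of FCER2 held GAAAAAGAA at 58 to 50 bases before the start. The second promoter of FCGR2B held overlapping matches of the composite and the tandem element on the opposite strand, at 15 to 7 and 21 to 13 bases. FCRLB, by its first promoter, was the only one of the 10 with an octamer (ATTTGCAT on the strand read, at 65 to 58 bases). The starts of these promoters of FCGR2B and FCRLB were likewise not found in GENCODE transcripts. Over all 35116 RefSeq promoters, 6.58% held the composite element, 6.88% the tandem element and 1.63% the octamer in windows of this length. Of the 414 promoters of genes called higher, 10.1% held the composite element, 14.7% the tandem element and 0.966% the octamer. For the 13700 promoters of all genes tested the shares were 6.58%, 5.86% and 1.45%, and the difference was not tested.

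FCRLA and FCRLB are intracellular relatives encoded beside FCGR2B. FCRLA, which binds immunoglobulin in the endoplasmic reticulum, measured 342, 337 and 329 CPM in control libraries against 304, 395 and 371 CPM with IRF4. The IRF4 libraries lay on either side of the control ones. Its log2 fold change was 0.09 (SE 0.11, 95% interval -0.18 to 0.36, edgeR adjusted p = 0.642). FCRLB measured 5.40, 5.58 and 6.07 CPM in control libraries against 3.40, 4.75 and 4.56 CPM with IRF4. It was the only one of the 10 with every IRF4 library below every control library, an arrangement that 11.9% of all genes tested showed. Its log2 fold change of -0.42 (95% interval -0.80 to -0.05) did not pass (edgeR adjusted p = 0.217). On side B of the axis, which holds IRF4 replicate 1, it was -0.75 and passed (edgeR adjusted p = 0.0197), and on side A it was -0.23 (edgeR adjusted p = 0.302). The reverse arrangement, with every IRF4 library above every control library, was found for 6 of the 10 and for 13.5% of all genes. The 6 were FCRL2, FCRL3, FCRL4, FCRL5, FCER2 and FCMR.

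FCGR2B measured 7.82, 6.10 and 6.46 CPM in control libraries against 5.52, 7.48 and 7.44 CPM with IRF4. The values followed the library axis: the 3 libraries of side A were the 3 highest. Group means were 6.79 ± 0.906 and 6.81 ± 1.12 CPM (SD, n = 3 per group), a difference of 0.0041 on the log2 scale (SE 0.17, edgeR adjusted p = 0.992). Its 95% interval, -0.39 to 0.40, does not reach the values of FCRL3, FCRL4 and FCRL5. FCGR2B shares long near-identical stretches with FCGR2A and FCGR2C, so reads could have been divided among them. FCGR2C had 0 counts in all libraries, and summing the 3 genes gave 0.03 on the log2 scale (SE 0.16, edgeR adjusted p = 0.933). FCGR2A, the activating relative, had 0 counts over the control libraries and 6, 4 and 1 in IRF4 ones. With 3 counts over the 3 control libraries together as the floor it was at least 3.17-fold higher, and at least 2.02-fold without IRF4 replicate 1, with no counting error put on the IRF4 counts. It lies below the filter, and in the fit without a filter it did not pass (edgeR adjusted p = 0.268). The nearest tested genes on either side of this second group, SDHC and DUSP12, had log2 fold changes of -0.40 and 0.12 (SE 0.12 and 0.17, edgeR adjusted p = 0.147 and 0.665). SDHC passed in 1 of the 6 fits without 1 library (edgeR adjusted p = 0.00955), and DUSP12 in 0.

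FCER2, on chromosome 19, measured 3.46, 3.65 and 3.64 CPM in control libraries against 4.48, 4.02 and 4.64 CPM with IRF4. The groups did not overlap and the difference was small. Its log2 fold change was 0.29 (95% interval 0.01 to 0.58, edgeR adjusted p = 0.244), and it did not pass in any of 16 alternative fits, which gave 0.25 to 0.39. FCMR measured 1.15, 1.19 and 0.985 CPM in control libraries against 2.24, 1.30 and 1.35 CPM with IRF4. IRF4 replicate 1 stood above the other two, which were close to the control libraries. The log2 fold change of FCMR was 0.55 (95% interval -0.07 to 1.16, edgeR adjusted p = 0.286) and 0.25 without that library. On side B it was 1.09 and passed (edgeR adjusted p = 0.032), and on side A it was 0.20 (edgeR adjusted p = 0.674). The nearest tested neighbours of FCER2, TRAPPC5 and EVI5L, and of FCMR, IL19 and PFKFB2, stood at 0.31, 0.50, 0.68 and 0.58 on the log2 scale (edgeR adjusted p = 0.411, 0.271, 0.388 and 0.0515). TRAPPC5 and PFKFB2 each passed in 1 of the 6 fits without 1 library (edgeR adjusted p = 0.00904 and 0.00152), and EVI5L and IL19 in 0. Over all 16 alternative fits PFKFB2 passed in 7, with log2 fold changes of 0.51 to 0.68. TRAPPC5 passed in 2 of the 16 and ran from -0.26 to 0.70.

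Levels of different genes were compared per length, as RPKM, the TMM-scaled CPM per 1000 bases of the deposited gene width. In control libraries FCRLA was at 103 ± 2.03 RPKM (SD, n = 3), far above FCGR2B at 3.02 ± 0.404, FCRL3 at 2.24 ± 0.0572, FCRLB at 2.15 ± 0.132 and FCER2 at 1.65 ± 0.0482 RPKM. FCRL1, FCRL4, FCRL2 and FCMR followed at 0.543, 0.519, 0.461 and 0.359 RPKM, and FCRL5 was lowest at 0.0712 ± 0.0143. Among neighbours in that order, FCRL3 overlapped FCRLB, FCRL1 overlapped FCRL4, FCRL4 overlapped FCRL2 and FCRL2 overlapped FCMR, so these do not differ beyond their spread. In IRF4 libraries FCRL3 stood second at 4.38 ± 0.859 RPKM, above FCGR2B at 3.03 ± 0.498, and their ranges did not overlap. FCRL4 moved from the seventh to the sixth place at 1.24 ± 0.121 RPKM, FCRL1 from the sixth to the ninth at 0.498 ± 0.145, and FCRL5 remained lowest at 0.173 ± 0.021. Among neighbours there, FCRLB overlapped FCRL4, FCRL2 overlapped FCMR and FCMR overlapped FCRL1. FCRLA held 90.8% to 91.3% of the summed CPM of the 10 genes in control and 86.2% to 89.8% in IRF4 libraries. The other 9 genes together gave 33.2 ± 1.25 CPM without and 46.9 ± 1.96 CPM with added IRF4 (SD, n = 3 per group), and FCRL3 was the largest of them.

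**Figure D4:**
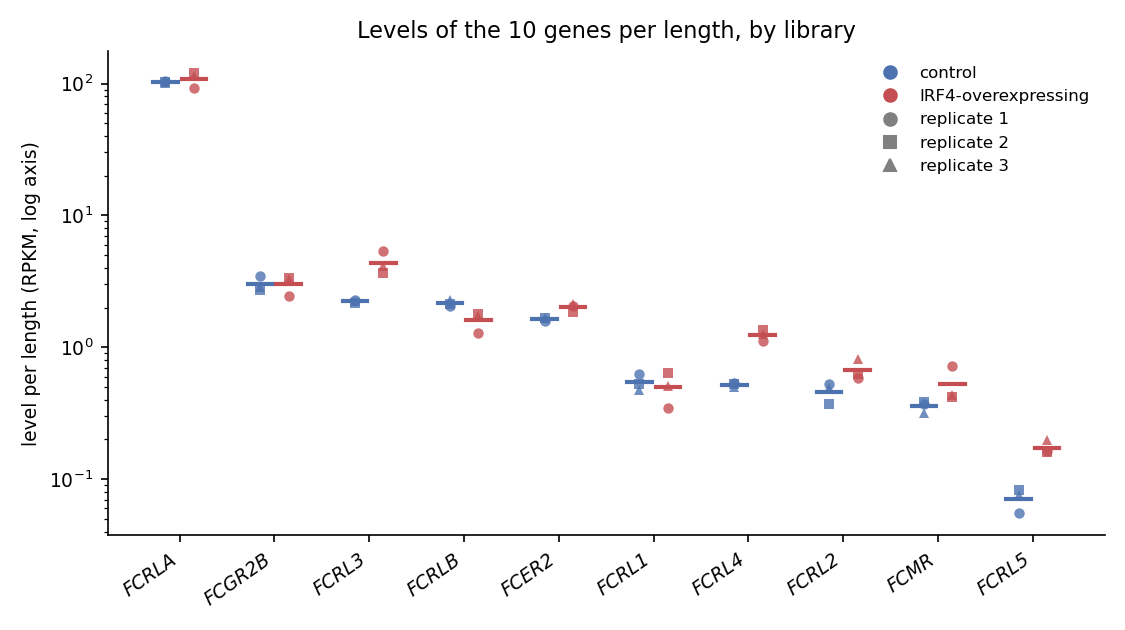
Level per length (y axis, RPKM on a log axis) of the 10 genes in each library, ordered by the control mean, with control in blue, IRF4 in red, marker shapes for replicates and lines for means. FCRLA stands alone near 103 RPKM, and FCRL3 moves from 2.24 to 4.38 RPKM, past FCGR2B.

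Over the 6 libraries, the genes with patterns most like each of the 10 were found by Pearson correlation of log2 CPM among the 9018 genes that averaged 5 CPM or more. With so few libraries and a search this wide, high values are found for any gene, and the groups and the axis are shared by all points. FCRL4 was closest to TRIM22 and EPSTI1 (r = 0.998 each), interferon-induced genes that rose by 2.18 and 2.30 on the log2 scale (edgeR adjusted p = 9.4e-04 and 0.00139). FCRL3 was closest to SEMA4A and CD38 (0.998 each), whose log2 fold changes of 0.51 and 0.32 did not pass (edgeR adjusted p = 0.0837 and 0.131). FCRL5 was closest to KIFC2 and PIM1 (0.994 and 0.992), whose log2 fold changes were 0.70 and 0.62 (edgeR adjusted p = 0.04 and 0.0206). The calls of KIFC2 and PIM1 were lost without each control library and without IRF4 replicate 2 or 3. FCGR2B was closest to CDC23 and ELOC (0.998 and 0.997), FCRLA to RACK1 and H3C7 (0.999 each), and FCRL1 to the ribosomal protein genes RPL14 and RPS4X (0.992 and 0.991). FCRL2 was closest to TMEM87B and GSAP (0.993 and 0.983), FCER2 to DHTKD1 and CFAP44 (0.982 and 0.980), FCMR to KDM5D and LAX1 (0.980 and 0.964) and FCRLB to VTI1B and TOMM22 (0.988 and 0.984). The genes paired with these last 7 had log2 fold changes of -0.15 to 0.64 and did not pass (edgeR adjusted p = 0.114 to 0.998). Among the 10 themselves, FCRL3, FCRL4 and FCRL5 correlated at 0.89 to 0.94 with each other. FCER2, which was not called, correlated with FCRL5, FCRL3 and FCRL4 at 0.95, 0.92 and 0.86. FCMR correlated with FCRLB at -0.98, FCRL3 with FCRLB at -0.94 and FCGR2B with FCRL1 at 0.85. Around their group means, FCGR2B, FCRL1, FCRLA, FCRL4 and FCRLB correlated with the library axis at 0.96, 0.95, 0.94, 0.90 and 0.75, being higher on side A. FCRL3 and FCMR were higher on side B (-0.83 and -0.80), and FCRL2, FCER2 and FCRL5 stood between (0.53, -0.41 and -0.15).

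Of 16 further Fc receptor and Fc-binding genes, 13 did not pass the filter, and 8 of these had 0 counts in all libraries, among them FCGR1A, FCGR3A, FCER1A and FCAR. By edgeR 0 of the 3 tested were called, against 2.98% of all genes called higher and 0.182% lower. At an unadjusted p under 0.05 there were also 0, against 11.3% and 8.18%, and DESeq2 and limma-voom called 0. FCER1G, the signalling chain of activating Fc receptors, was at 0.431 ± 0.101 and 0.259 ± 0.0659 CPM (SD, n = 3 per group), a difference of -0.73 on the log2 scale (edgeR adjusted p = 0.266), and TRIM21, the cytosolic antibody receptor, was at 10.0 ± 0.416 and 10.8 ± 0.15 RPKM, above every one of the 10 genes except FCRLA. Its log2 fold change was 0.11 (edgeR adjusted p = 0.47). Of 22 other inhibitory receptors of B cells, 10 passed the filter, and 0 of these were called by edgeR, DESeq2 or limma-voom. Of all genes these called 2.98%, 4.78% and 2.81% higher and 0.182%, 1.45% and 0.182% lower. At an unadjusted p under 0.05 by edgeR, 0 of the 10 were lower and 2 higher, against 8.18% and 11.3% of all genes. Those were CLEC2D and CEACAM1, with log2 fold changes of 0.42 and 1.44 (edgeR adjusted p = 0.149 and 0.191). Without IRF4 replicate 1, 2 of the 10 were called higher and 2 lower, against 19.9% and 25.1% of all genes.

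Of 21 phosphatases, kinases and adaptors that act below inhibitory receptors, 16 were tested. By edgeR 0 of them rose and 1 fell, against 2.98% and 0.182% of all genes, and their median was -0.22 on the log2 scale. The fall was in PAG1, a membrane adaptor through which Src-family kinases are restrained, from 214 ± 6.82 to 140 ± 6.48 CPM (SD, n = 3 per group), a difference of -0.61 on the log2 scale (edgeR adjusted p = 0.0131). That call was lost in 5 of the 6 fits without 1 library, all but the one without IRF4 replicate 1 (edgeR adjusted p = 0.0773 to 0.0904). PTPN6, the phosphatase SHP-1 that inhibitory motifs recruit, was at 8.79 ± 1.29 and 5.21 ± 1.41 CPM (SD, n = 3 per group), a difference of -0.76 on the log2 scale (edgeR adjusted p = 0.135), and DESeq2 called it lower (adjusted p = 0.0328). PTPN6 also passed with the axis term and without IRF4 replicate 1 (edgeR adjusted p = 0.0225 and 0.00126), but without no other single library. INPP5D, the lipid phosphatase SHIP-1 through which FCGR2B acts, was named after its values were seen and had a log2 fold change of -0.19 (edgeR adjusted p = 0.584). In the 6 fits without 1 library INPP5D ran from -0.45 to -0.03 and passed in 1 of them (edgeR adjusted p = 0.0148). At an unadjusted p under 0.05 by edgeR, 1 of the 16 was higher and 5 lower, against 11.3% and 8.18% of all genes. DESeq2 called 0 higher and 2 lower, against 4.78% and 1.45% of all genes. For limma-voom these were 0 and 1, against 2.81% and 0.182%. Without IRF4 replicate 1, 0 of the 16 were called higher and 10 lower, against 19.9% and 25.1% of all genes.

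All 28 genes of B cell receptor and co-receptor signalling were tested, of which 1 rose and 1 fell, against 2.98% and 0.182% of all genes. DESeq2 called 4 higher and 1 lower, against 4.78% and 1.45% of all genes. At an unadjusted p under 0.05 by edgeR, 5 of the 28 were higher and 2 lower, against 11.3% and 8.18% of all genes. Without IRF4 replicate 1, 7 were called higher and 10 lower, against 19.9% and 25.1% of all genes. VAV3, an exchange factor, rose from 0.304 ± 0.0478 to 0.876 ± 0.0593 CPM (SD, n = 3 per group), a difference of 1.53 on the log2 scale (edgeR adjusted p = 0.0173), and PRKCB, a kinase below the receptor, fell from 138 ± 1.02 to 94.0 ± 3.47 CPM, a difference of -0.55 (edgeR adjusted p = 0.0168). Both calls were lost in 5 of the 6 fits without 1 library, with edgeR adjusted p of 0.0684 to 0.0896 for VAV3 and 0.0861 to 0.116 for PRKCB. Of 24 partners and regulators of FCER2, 21 were tested, 2 rose and 0 fell by edgeR (2.98% and 0.182% of all genes), and the median log2 fold change was -0.01. DESeq2 called 3 higher and limma-voom 2, against 4.78% and 2.81% of all genes. Without IRF4 replicate 1, 5 were called higher and 9 lower, against 19.9% and 25.1% of all genes. At an unadjusted p under 0.05 by edgeR, 4 of the 21 were higher and 1 lower, against 11.3% and 8.18% of all genes. By DESeq2 and limma-voom 0 fell, against 1.45% and 0.182% of all genes. ITGAM, a chain of an integrin that binds CD23, rose 3.78-fold (edgeR adjusted p = 0.00256), and CD40, whose ligand induces CD23, rose 1.41-fold (edgeR adjusted p = 0.0389). ITGAM passed in all 6 fits without 1 library. The call of CD40 was lost in 5 of the 6 fits without 1 library (edgeR adjusted p = 0.0857 to 0.218). CR2, the complement receptor that CD23 binds, was named after its values were seen and had a log2 fold change of 0.48 (edgeR adjusted p = 0.106). It was called higher by DESeq2 (adjusted p = 0.0248), with the axis term, within each side and without IRF4 replicate 1.

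Markers of other cell types were summed in each library beside FCRL3, FCRL4 and FCRL5. The 17 myeloid markers gave 3.26 to 3.61 CPM without and 6.13 to 9.36 CPM with added IRF4, with MRC1, MPO, ELANE and S100A9 at 0 counts and 4 of the 17 passing the filter. By edgeR only ITGAM of these 4 was called, as higher, against 2.98% of all genes. DESeq2 called 2 higher, against 4.78% of all genes. CSF1R averaged 0.427 and 2.22 CPM, with 4.07 CPM in IRF4 replicate 1. Its log2 fold change of 2.38 did not pass (edgeR adjusted p = 0.0846). LYZ and CD68, also tested, were at 0.18 and 0.20 on the log2 scale (edgeR adjusted p = 0.667 and 0.623). The 14 T and NK cell markers summed to 0.298 to 0.52 and 0.639 to 0.972 CPM, with CD2, CD8A, CD8B, GNLY, NCAM1 and GZMB at 0 and 0 of 14 passing the filter. Markers of mast cells, basophils and platelets summed to at most 0.189 CPM in any library, and those of epithelial cells and fibroblasts to 42.7 to 53.9 and 57.5 to 62.8 CPM, with EPCAM, KRT18, KRT19, COL1A2 and COL3A1 at 0. VIM, which lymphoid cells also make, held 42.1 to 52.7 and 53.4 to 60.6 CPM of that sum. COL1A1 averaged 0.812 and 2.21 CPM and was higher in every IRF4 library, without passing (edgeR adjusted p = 0.192). CDH1, below the filter, had 5 counts over the control and 54 over the IRF4 libraries, and PDGFRB had 1 and 12. KRT8 and DCN went the other way, with 12 and 6 counts and with 2 and 1. The 9 plasma cell markers gave 1480 to 1740 and 1380 to 1840 CPM, most of it from JCHAIN (means of 1140 and 1210 CPM). SDC1, with 1 count in each group, did not pass the filter, and the other 8 were tested. By edgeR 1 of the 8 was called higher and 0 lower, against 2.98% and 0.182% of all genes. Without IRF4 replicate 1, 4 were called higher and 2 lower, against 19.9% and 25.1% of all genes. SLAMF7, a surface receptor of plasma cells, rose (2.11 on the log2 scale, edgeR adjusted p = 0.0136), a call lost without control replicate 1, 2 or 3 (edgeR adjusted p = 0.086, 0.0962 and 0.0813). PRDM1, the plasma cell regulator BLIMP-1, was named after its values were seen and was below control in every IRF4 library (-0.75, edgeR adjusted p = 0.07), and DESeq2 called it lower (adjusted p = 0.034). The part of these markers in the rises of FCRL3, FCRL4 and FCRL5 was not tested.

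The calls of the 10 genes can be read against how often each fit called any gene. Higher calls made up 2.86% of genes with median-ratio size factors, 4.16% with library sizes alone, 2.06% without the filter and 2.59% with a minimum of 1 CPM in 3 libraries. They were 4.78% by DESeq2, 2.81% by limma-voom, 5.87% with the library axis as a term, 18.4% within side A, 6.99% within side B and 0.0248% with the replicate block. Leaving out 1 library gave 0.975% to 1.28%, apart from 19.9% without IRF4 replicate 1, where FCRL2 joined FCRL3, FCRL4 and FCRL5. The values were 1.02%, 0.975% and 1.11% without control replicate 1, 2 and 3 and 1.25% and 1.28% without IRF4 replicate 2 and 3. Lower calls were 0.174%, 0.108%, 0.0922% and 0.145% under the first 4 of these settings. They were 1.45% by DESeq2, 0.182% by limma-voom, 3.22% with the axis term, 24.8% within side A and 3.28% within side B, where FCRLB was the only one of the 10. Without single libraries they were 0.0244%, 0.0244% and 0.0245% (control 1, 2 and 3) and 25.1%, 0.0245% and 0.0246% (IRF4 1, 2 and 3).

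**Figure D5:**
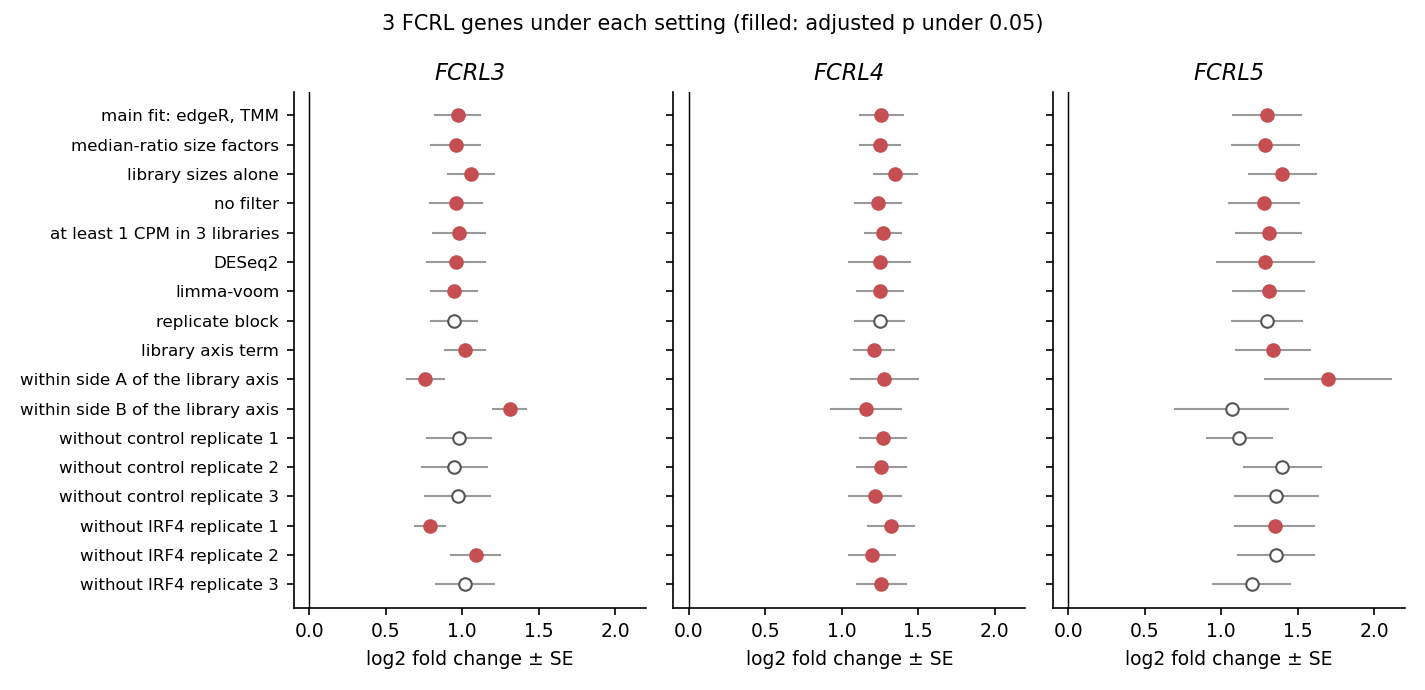
Log2 fold change ± SE (x axis) of FCRL3, FCRL4 and FCRL5 under each setting (rows), filled where the adjusted p was under 0.05. All values lie above 0, from 0.76 to 1.31 for FCRL3, 1.16 to 1.35 for FCRL4 and 1.07 to 1.70 for FCRL5, and FCRL4 is unfilled with the replicate block alone.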

How the data were processed

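RNA was sequenced from 3 control and 3 IRF4 Raji libraries, made per the labels' protocols with a stranded poly(A) kit. The authors deposited raw read counts per Entrez gene, 1 column per library, and a width per gene. The control columns are named WT there, and the labels give the control as empty vector. The human build was hg19 per the submitters' processing notes. The aligner, counter and strand setting are not given in the sources used here. Symbols came from RefSeq for GRCh38.p14 and matched 23308 of 23459 rows. That reference gave names, gene order and promoter sequences, with no coordinates carried over to the counts.

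All 12079 genes kept by filterByExpr were fitted with edgeR 4.0.16 (R 4.3.3), TMM scaling and a group-only design. The two-sided quasi-likelihood F-test was used, with Benjamini-Hochberg adjustment over all genes, and genes were called at an adjusted p under 0.05. SE is the absolute log2 fold change divided by the root of F, and 95% intervals use the fit's degrees of freedom. Gene pattern correlations used log2 CPM with a prior count of 2. The alternatives were other scalings and filters, DESeq2 1.42.0, limma-voom (limma 3.58.1), the replicate block, the library axis as a term and within its sides, and leaving out each library. Each side has a group with 1 library, which is assumed to vary like the others, and the axis was read from these counts, so p-values that use it are too small. Genes named were the 10, IRF4, each list's called genes or its 2 smallest p, nearest tested neighbours and the 2 most similar patterns. The 10 genes and the lists were chosen with earlier results of these data known. The tests were tested on simulated data before use, and no 2 replicates were alike within counting error (chi-square per gene of 6.73 to 196). Figures were drawn with matplotlib 3.10.9. Protein sequences were not used here. The result of 1 marker list is not reported here.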

Additional observations from a re-analysis of the deposited data

How the results depend on the processing

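FCRL4, FCRL5 and FCRL3 kept a positive log2 fold change under all 16 alternatives. FCRL4 lost its call under the replicate block alone, FCRL3 under 5 and FCRL5 under 7. Replicate numbers showed no pairing of the libraries: deviations of same-numbered libraries correlated at -0.65, -0.22 and -0.47, and 0 of 6 libraries followed their own number best. The library axis took up 74.3% of the variance of these deviations, so a pairing beneath it could be hidden from this check. With the replicate block 3 genes were called higher, 0 lower and 0 of the 10, and the edgeR adjusted p was 0.113 for FCRL4, 0.163 for FCRL3 and 0.193 for FCRL5.

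Against 360 genes higher and 22 lower, DESeq2 gave 577 and 175, the library axis term 709 and 389, side A 2309 and 3118, and side B 858 and 402. Library sizes alone gave 13 lower. Leaving out each library gave 120 to 2436 higher and 3 to 3071 lower, the upper ends without IRF4 replicate 1. Of the 10, 1 to 4 were then called higher and 0 lower, against 3. The single gene in 4 of those 6 fits was FCRL4. On side B 1 of the 10 was called lower, FCRLB.

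FCGR2B, at 0.0041, had a negative value with median-ratio size factors (-0.01), no filter (-0.02), DESeq2 (-0.01), limma-voom (-0.0032), the replicate block (-0.00016), the axis term (-0.12) and sides A and B (-0.08 and -0.15), and ran from -0.08 to 0.12 without single libraries. FCRL1 turned to 0.05 without IRF4 replicate 1 and ran from -0.33. On side B, FCRLA was at -0.10, TRAPPC5 at -0.26, INPP5D at 0.14 and DUSP12 at -0.11, and DUSP12 was at -0.02 with the axis term. Counts of 19 to 24 per control library limit FCRL5, and the cause of these shifts was not tested.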
